A study of Homo sapiens with 36 samples.

Results

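Metallothioneins are small, cysteine-rich proteins that bind zinc, copper and other metals, and MTF1 and SLC30A1 belong to the same zinc-regulated system. The genes followed here were the metallothionein genes *MT1A*, *MT1E*, *MT1F*, *MT1G*, *MT1M*, *MT1X* and *MT2A*, the zinc-sensing transcription factor gene *MTF1* and the zinc exporter gene *SLC30A1*. They were chosen by name, as the rows of the count table whose Ensembl identifier maps to these symbols, and all 9 were found among 61587 genes. The libraries came from *TXNL1* knockout (KO) HEK293T cells, a line derived from human embryonic kidney. *TXNL1* encodes a thioredoxin-like protein that binds the proteasome.

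By the study's methods the knockout was made with CRISPR and taken from a single-cell-sorted clone, so every group, controls included, carries it. Cells carried an empty vector or were complemented with WT TXNL1, with D162R R234D TXNL1, which is mutated at the contacts with the proteasome, or with SxxS TXNL1, which is mutated in the thioredoxin active site. Each of these 4 lines was untreated (the labels name DMSO) or exposed to an oxidant for 6 h, arsenite at 100 µM or hydrogen peroxide at 600 µM. Doses and time are from the study's methods. There were 3 libraries in each of 12 groups, 36 in all.

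In zinc-replete or metal-exposed cells, MTF1 binds zinc, enters the nucleus and binds metal response elements in the promoters of metallothionein genes and of *SLC30A1*. Metallothioneins buffer the metal inside the cell, and SLC30A1, a transporter of the plasma membrane, moves zinc out of it. Arsenite binds thiol groups, and hydrogen peroxide oxidizes them, and both oxidants can release zinc from proteins.

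The 7 metallothionein genes lie in one cluster on chromosome 16 (GRCh38, chr16:56608584-56684196), which spans 75.61 kb. *MT2A* (ENSG00000125148, 56608584 to 56609497) is at its start and *MT1X* (ENSG00000187193, 56682470 to 56684196) at its end. *MT1G* is on the minus strand and the other 6 are on the plus strand. *MTF1* (ENSG00000188786, chr1:37809574-37859592) and *SLC30A1* (ENSG00000170385, chr1:211571568-211579161) are both on the minus strand of chromosome 1. The exons of *MT1X* overlap the long non-coding RNA gene ENSG00000259827 on the same strand, so reads of the shared exons cannot be given to one of them. The other 8 genes overlap no exon of another gene in GENCODE release 44.

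The promoters are shown because MTF1 binds its target genes there. RefSeq's promoter table (GRCh38.p14) held 4 of the 9 genes, and *MT1A*, *MT1E*, *MT1F*, *MT1G* and *MT1M* are named only. Each line gives the 250 bases before the transcript start, 5′ to 3′ on the gene's strand, with matches to the core of the metal response element in capitals. The core was searched on both strands as TGCACNC or TGCGCNC, so a match on the opposite strand reads in reverse complement. The regions are chr16:56608334-56608583 for *MT2A*, chr16:56682220-56682469 for *MT1X*, chr1:211579162-211579411 for *SLC30A1* and chr1:37859593-37859842 for *MTF1*.
MT2A: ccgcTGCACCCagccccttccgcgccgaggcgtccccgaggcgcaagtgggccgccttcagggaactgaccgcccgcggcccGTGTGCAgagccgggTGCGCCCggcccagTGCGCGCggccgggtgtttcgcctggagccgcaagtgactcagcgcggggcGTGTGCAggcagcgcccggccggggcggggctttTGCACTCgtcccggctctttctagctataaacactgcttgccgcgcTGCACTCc
MT1X: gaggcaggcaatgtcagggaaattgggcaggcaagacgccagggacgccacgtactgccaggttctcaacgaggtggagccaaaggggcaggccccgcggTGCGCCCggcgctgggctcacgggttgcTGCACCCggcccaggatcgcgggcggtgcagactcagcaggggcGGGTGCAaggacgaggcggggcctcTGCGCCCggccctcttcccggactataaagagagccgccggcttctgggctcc
SLC30A1: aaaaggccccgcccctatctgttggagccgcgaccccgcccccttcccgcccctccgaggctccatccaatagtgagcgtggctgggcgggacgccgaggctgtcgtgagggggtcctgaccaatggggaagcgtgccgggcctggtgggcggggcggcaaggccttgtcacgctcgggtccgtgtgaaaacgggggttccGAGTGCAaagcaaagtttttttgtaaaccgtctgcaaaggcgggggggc
MTF1: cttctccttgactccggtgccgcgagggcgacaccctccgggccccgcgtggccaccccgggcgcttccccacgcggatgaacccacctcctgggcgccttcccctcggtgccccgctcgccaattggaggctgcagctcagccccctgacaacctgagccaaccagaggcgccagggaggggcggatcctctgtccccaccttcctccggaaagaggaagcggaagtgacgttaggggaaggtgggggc

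The *MT2A* promoter held 7 matches to this core, that of *MT1X* 4, that of *SLC30A1* 1 and that of *MTF1* 0. Of 35116 promoters in the table, 24.8% held at least 1 match and 0.37% held 4 or more. The core of the antioxidant response element, the site of NRF2, was searched as TGACNNNGC. It had 1 match each in *MT2A*, *MT1X* and *SLC30A1*, against 10.9% of all promoters, and 0 in *MTF1*. The heat shock element, searched as GAANNTTC, had 0 matches in the 4 promoters and was present in 5.78% of all. No matches of different motifs overlapped. A match is a description of the sequence and not a measured site of binding.

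**Figure D1:**
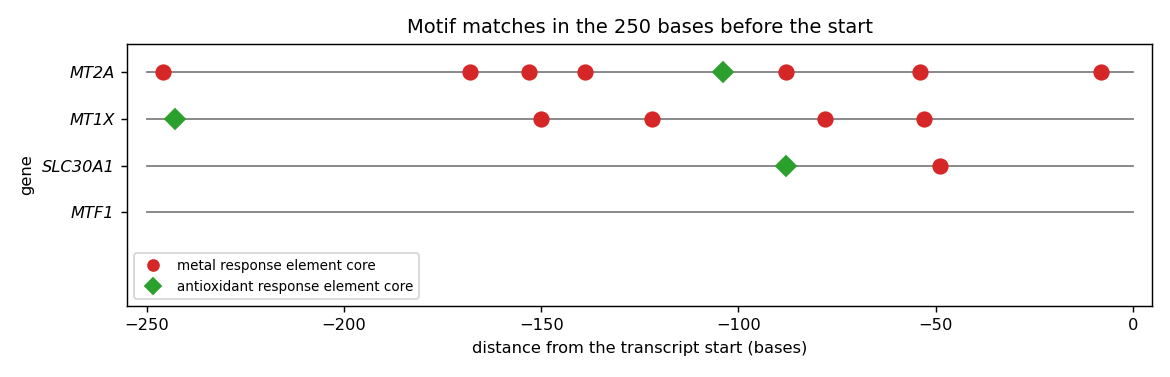
Matches to the metal response element core (circles) and the antioxidant response element core (diamonds) by distance from the transcript start in bases, for the 4 genes with a promoter in the table. *MT2A* holds 7 circles, *MT1X* 4, *SLC30A1* 1 and *MTF1* 0.

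Library totals ran from 42072410 to 174119002 counts with a median of 66016833. In untreated cells the *TXNL1* transcript was at 28.6 to 31.7 CPM (counts scaled to the library total after TMM correction) in vector libraries and at 51.7 to 66.2 CPM in the complemented lines. Around the group median, the SD of the log2 CPM over 14980 genes was 0.58 in WT hydrogen peroxide replicate 2 and 0.51 in WT arsenite replicate 1, against 0.064 to 0.17 in the other 34 libraries. The TMM factors of these 2 outlying libraries were 0.91 and 0.88 in the same order, against 0.97 to 1.03 in the others. WT arsenite replicate 1 also had the highest library total. Where these 2 libraries change a call, a sign or a size by much, the value without them is given too. The 4 markers fixed for HEK293T cells summed to 503 to 585 CPM in untreated cells, 569 to 776 CPM after hydrogen peroxide and 538 to 713 CPM after arsenite. The 5 markers of leukocytes, hepatocytes, erythroid cells and endothelium summed to 0 to 0.288, 0 to 0.597 and 0.0958 to 0.328 CPM in the same order. None of these 5 reached the count minimum. *ALB*, the hepatocyte marker, made up 155 of their 181 counts after arsenite, against 12 of 45 in untreated cells, and *PTPRC*, *CD3E* and *HBB* were at 0 in every arsenite library. Of the 4 HEK293T markers, untreated medians were 471 CPM for *VIM*, 44.7 for *KRT18*, 14.9 for *KRT8* and 0.133 for *NEFM*. Their sum was thus mostly *VIM*, and *NEFM* was near absent. The part of any of these markers in the results was not tested.

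A gene was tested when it had at least 10 counts over the 3 untreated vector libraries. Of the 9 genes, 5 were tested: *MT2A*, *MT1X*, *MT1F*, *SLC30A1* and *MTF1*. The other 4 had too few counts in untreated cells. *MT1A* had 2 counts in the untreated vector libraries and *MT1E*, *MT1G* and *MT1M* had 0. Over all 12 untreated libraries the totals were 7 for *MT1A*, 2 for *MT1E*, 4 for *MT1G* and 0 for *MT1M*.

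Per kilobase of gene length as given in the count table, the median level in untreated cells was 15.9 CPM per kb for *MT2A*, 8.87 for *MT1X*, 6.06 for *SLC30A1*, 2.77 for *MTF1* and 1.16 for *MT1F*. The ranges over the 12 untreated libraries did not overlap between neighbours in this order. After arsenite the medians on the same scale were 237 for *MT2A*, 87.0 for *MT1X*, 18.1 for *SLC30A1*, 2.35 for *MT1F* and 2.24 for *MTF1*. The ranges of *MT1F* (2.03 to 3.87) and *MTF1* (2.03 to 2.48) then overlapped, and those of the other neighbours did not. This order depends on the lengths used, which for *MT2A* (914 bases) and *MT1X* (1727 bases) equal the whole span of the gene. In CPM without division by length, the untreated medians were 35.7 for *SLC30A1*, 22.1 for *MTF1*, 15.3 for *MT1X*, 14.6 for *MT2A* and 2.15 for *MT1F*. After arsenite they were 217 for *MT2A* and 150 for *MT1X*.

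*MT2A*, the metallothionein gene with the highest level per kb here, rose strongly with arsenite in every line. In vector cells the 3 libraries were at 13.5, 12.7 and 12.8 CPM untreated, 15.3, 18.4 and 17.2 CPM after hydrogen peroxide and 264, 167 and 195 CPM after arsenite. In WT cells they were at 15.1, 15.5 and 16.5 CPM untreated, 12.5, 32.9 and 13.5 CPM after hydrogen peroxide and 390, 163 and 195 CPM after arsenite. In D162R R234D cells they were at 12.7, 15.5 and 19.5 CPM untreated, 14.6, 15.6 and 15.6 CPM after hydrogen peroxide and 227, 171 and 208 CPM after arsenite. Every arsenite library lay far above every other library, and the highest value of either oxidant was in one of the outlying WT libraries. In SxxS cells the values were 14.7, 12.6 and 14.4 CPM untreated, 15.5, 14.4 and 13.6 CPM after hydrogen peroxide and 261, 242 and 225 CPM after arsenite.

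With arsenite, the log2 fold change of *MT2A* was 4.0 for the vector line (standard error 0.29), 3.99 for WT, 3.67 for D162R R234D, with 4.13 for the SxxS line. The group means in vector cells were 13.0 ± 0.461 CPM untreated and 208.5 ± 49.8 CPM after arsenite (SD, n = 3). The WT value was 3.48 without both outlying WT libraries. Averaged over the lines it was 3.95 (standard error 0.15, Benjamini-Hochberg adjusted p = 4.15e-20 in the quasi-likelihood test of edgeR), or 15.4-fold. Bulk RNA gives levels relative to the total, so a change in RNA per cell cannot be told apart from a change in the share of one transcript. After hydrogen peroxide the averaged log2 fold change was 0.18 (adjusted p = 0.474 in the same edgeR test). In WT cells it was 0.33 with all libraries and -0.28 without both outlying WT libraries, and neither value passed the threshold.

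*MT1X*, at the other end of the cluster, also rose strongly with arsenite in every line. Untreated libraries ran from 12.9 to 19.2 CPM with a median of 15.3, hydrogen peroxide libraries from 15.6 to 30.8 CPM (median 18.3) and arsenite libraries from 109 to 253 CPM (median 150.2). In vector cells the values were 14.8, 15.3 and 15.5 CPM untreated, 18.0, 16.5 and 18.6 CPM after hydrogen peroxide and 153, 124 and 141 CPM after arsenite. In WT cells they were 12.9, 15.4 and 16.1 CPM untreated, 15.6, 30.8 and 17.0 CPM after hydrogen peroxide and 253, 113 and 147 CPM after arsenite. The arsenite libraries did not overlap the others, while hydrogen peroxide and untreated libraries did. In D162R R234D cells arsenite gave 158, 109 and 153 CPM, and in SxxS cells 190, 163 and 148 CPM. The outlying WT library was the highest of these 12. The log2 fold change with arsenite was 3.20 for vector, 3.53 for WT, 3.15 for D162R R234D, with 3.42 for SxxS cells. The WT value was 3.11 without both outlying WT libraries. Its average was 3.33 (standard error 0.12, adjusted p = 8.82e-21, edgeR), and these counts include reads shared with the overlapping non-coding gene. After hydrogen peroxide the averaged log2 fold change was 0.30, which missed the threshold (adjusted p = 0.0757, edgeR) and passed it in DESeq2 (adjusted p = 0.0452). Without both outlying WT libraries it was 0.20 (adjusted p = 0.0528, edgeR), and without WT hydrogen peroxide replicate 2 alone it was also 0.20 (adjusted p = 0.15, edgeR). That library was at 30.8 CPM, and in WT cells the value was 0.52 with it and 0.14 without it, neither called.

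*MT1F*, also in the cluster, was lower, and its fold change was smaller. It ran from 1.39 to 2.66 CPM in untreated libraries, from 2.35 to 4.65 CPM after hydrogen peroxide and from 3.75 to 7.16 CPM after arsenite. In WT cells the values were 1.39, 1.76 and 2.20 CPM untreated, 2.89, 4.65 and 2.84 CPM after hydrogen peroxide and 7.16, 4.34 and 3.77 CPM after arsenite. Within each line, every arsenite library was above every untreated one. With arsenite the log2 fold change was 0.97 for vector, 1.52 for WT, 0.87 for D162R R234D, with 1.10 for SxxS cells. The average was 1.12 (standard error 0.10, adjusted p = 6.90e-11, edgeR), and that in WT was 1.14 without both outlying WT libraries.

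*MT1F* was the only tested gene of the 9 that passed the threshold after hydrogen peroxide. Its averaged log2 fold change was 0.48 (standard error 0.10, adjusted p = 0.00212, edgeR). Within lines it passed in WT cells, with a log2 fold change of 0.96 (adjusted p = 0.00469, edgeR). In vector, D162R R234D and SxxS cells it was 0.28, 0.31 and 0.36 and did not pass. Without WT hydrogen peroxide replicate 2 the WT value was 0.68 and did not pass (adjusted p = 0.0767, edgeR). Without both outlying WT libraries it was 0.67 and passed (adjusted p = 0.0061, edgeR). In a fit of only the groups compared it was 0.95 and did not pass (adjusted p = 0.553, edgeR).

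*MT1A* was below the count minimum and nearly undetected without arsenite. Its counts were at 0 to 2 in the 12 untreated libraries, 0 to 7 after hydrogen peroxide and 4 to 56 after arsenite. After arsenite the 3 replicates held 8, 17 and 25 counts in vector, 56, 4 and 17 in WT, 4, 9 and 29 in D162R R234D and 17, 20 and 30 in SxxS cells. Every arsenite library thus held more counts than any untreated one, and within a line the replicates differed widely. Summed over the lines there were 7 counts untreated, 13 after hydrogen peroxide and 236 after arsenite. The ratio of arsenite to untreated counts, corrected for library size, was 24.5, with an exact Poisson 95% interval of 11.7 to 61.7 that covers counting error only. For hydrogen peroxide it was 1.72 (0.637 to 5.08). The ratios were 21.9 (10.4 to 55.3) and 0.90 (0.25 to 3.13) without both outlying WT libraries. In single lines the arsenite ratio was 15.1 for vector, 22.3 for WT, 19.7 for D162R R234D, with 57.5 for SxxS cells, each against 1 or 2 untreated counts. The WT arsenite library that stands apart held 56 of the 77 counts of its group, and without it the WT ratio was 13.1 (3.19 to 115). In a fit without the count minimum, the averaged log2 fold change with arsenite was 4.29 (standard error 0.51, adjusted p = 6.63e-10, edgeR).

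*MT1G*, *MT1E* and *MT1M* stayed near the limit of detection. *MT1G* had 4 counts in all untreated libraries, 4 after hydrogen peroxide and 16 after arsenite, and *MT1E* had 2, 3 and 6. *MT1M* had 0, 0 and 1. A count of 0 in a library allows up to 3 counts, which is 0.0367 to 0.0713 CPM in untreated and 0.0196 to 0.0719 CPM in arsenite libraries. In the fit without the count minimum, the averaged arsenite value of *MT1G* was 1.67 and did not pass (adjusted p = 0.149, edgeR). No change of *MT1E* or *MT1M* was detectable at this depth.

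**Figure D2:**
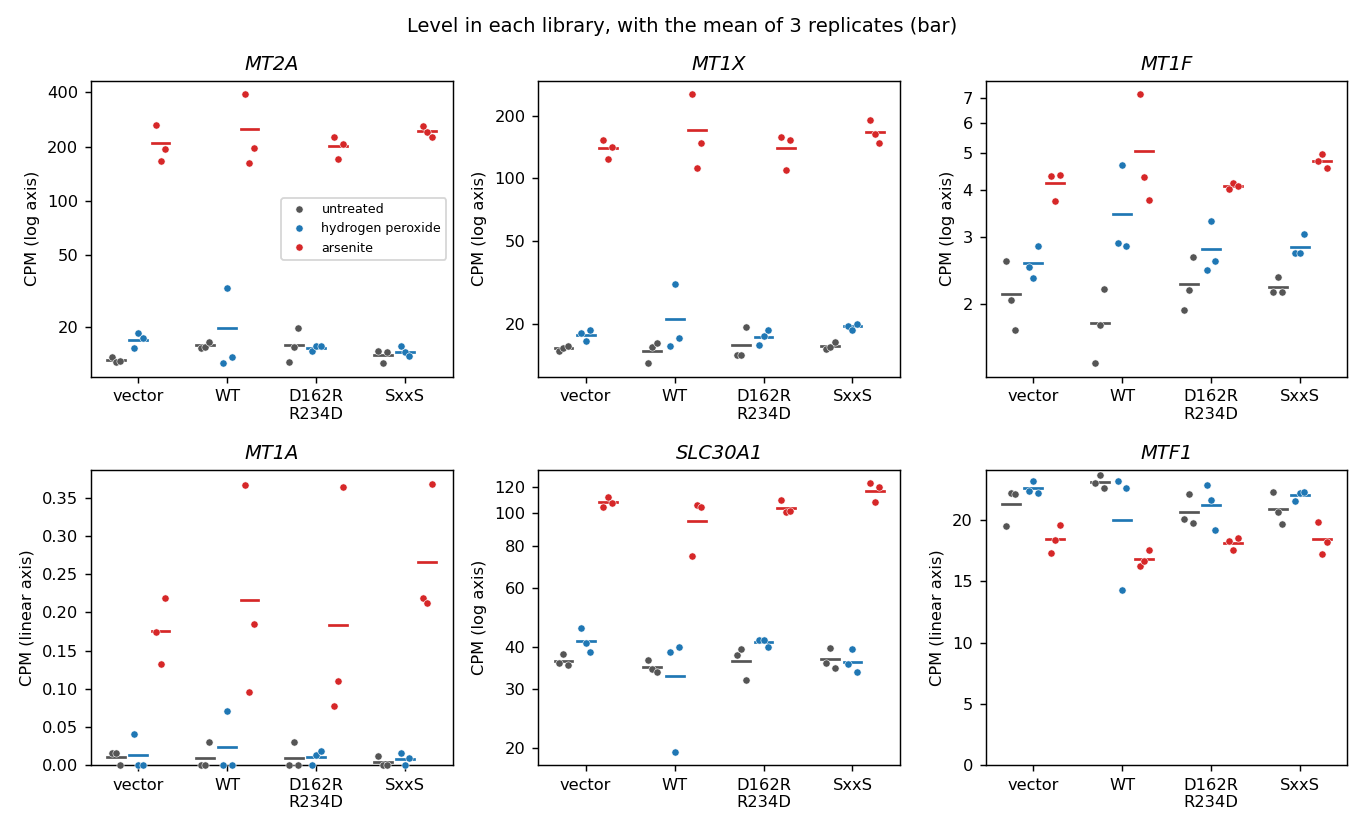
Level in CPM of 6 of the 9 genes in each of the 36 libraries (points) with the mean of 3 replicates (bars), by line and treatment; *MT1A* and *MTF1* have linear axes and the others log axes. The arsenite points of *MT2A*, *MT1X* and *SLC30A1* lie above all other points, and 1 WT library in each oxidant stands apart.

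*SLC30A1*, the exporter, rose with arsenite in all lines. In vector cells it was at 35.7, 38.0 and 35.3 CPM untreated, 45.3, 41.1 and 38.5 CPM after hydrogen peroxide and 105, 112 and 107 CPM after arsenite. In WT cells it was at 36.5, 34.3 and 33.6 CPM untreated, 38.6, 19.4 and 40 CPM after hydrogen peroxide and 74.5, 105 and 104 CPM after arsenite. After arsenite it was at 109, 100.7 and 102 CPM in D162R R234D and at 123, 108 and 120 CPM in SxxS cells. No arsenite library overlapped an untreated one. Over all lines, untreated libraries ran from 31.7 to 39.7 CPM and arsenite libraries from 74.5 to 123 CPM. The group means in vector cells were 36.3 ± 1.46 and 107.9 ± 3.58 CPM (SD, n = 3). The lowest arsenite value and the lowest hydrogen peroxide value, 19.4 CPM, came from the outlying WT libraries. The log2 fold change with arsenite was 1.57 for vector, 1.44 for WT, 1.52 for D162R R234D, with 1.67 for SxxS cells. It averaged 1.55 (standard error 0.079, adjusted p = 8.74e-17, edgeR), or 2.93-fold. After hydrogen peroxide the average was 0.066 (adjusted p = 0.685, edgeR). Without both outlying WT libraries it was 0.13 and passed the threshold (adjusted p = 0.00524, edgeR). In that fit 14.7% of all tested genes were called higher, against 6.78% with all libraries.

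*MTF1*, the transcription factor, moved little and downward. Untreated libraries ran from 19.5 to 23.6 CPM (median 22.1), hydrogen peroxide libraries from 14.3 to 23.2 CPM (median 22.2) and arsenite libraries from 16.2 to 19.8 CPM (median 17.9). In WT cells it was at 23.0, 23.6 and 22.6 CPM untreated and at 16.2, 16.6 and 17.6 CPM after arsenite. In vector cells it was at 19.5, 22.2 and 22.1 CPM untreated and at 17.3, 18.3 and 19.6 CPM after arsenite. The groups did not overlap in WT cells, nor in D162R R234D cells (19.8 to 22.1 CPM untreated and 17.6 to 18.5 CPM after arsenite). They overlapped in vector and SxxS cells, and over all lines the highest arsenite library was above the lowest untreated one. Averaged over the lines, *MTF1* fell by 0.26 on the log2 scale (standard error 0.054, adjusted p = 0.000106, edgeR). Within lines it passed the threshold in WT cells, at -0.46 (adjusted p = 0.000809, edgeR). In vector, D162R R234D and SxxS cells it was -0.21, -0.19 and -0.18 and did not pass. Without both outlying WT libraries these 3 values were -0.22, -0.21 and -0.20 and all passed (adjusted p = 0.00319, 0.00603 and 0.00618, edgeR). The share of all tested genes called within lines was not taken for that fit. After hydrogen peroxide the averaged log2 fold change was -0.0018 (adjusted p = 0.991, edgeR).

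With arsenite, *MT2A*, *MT1X*, *MT1F* and *SLC30A1* were called higher in each of the 4 lines, so 4 of 5 tested genes rose. Of all 22486 tested genes, 22.1% were called higher for vector, 28.7% for WT, 22.5% for D162R R234D, with 22.1% for SxxS cells. The 1 gene called lower, *MTF1* in WT cells, stands against 24.9% of all genes there, and 21.4%, 21.5% and 21.5% were lower in vector, D162R R234D and SxxS cells. Averaged over the lines, 4 of 5 were higher and 1 lower, against 37.4% and 31.5% of all tested genes. The median log2 fold change was 1.55 over the 5 genes and 0.060 over all tested genes.

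With hydrogen peroxide, 0 of 5 were called in vector, D162R R234D and SxxS cells and 1 of 5 in WT cells. Of all tested genes, 1.35%, 1.03%, 1.02% and 8.06% were called in vector, D162R R234D, SxxS and WT cells. In the first 3 lines no gene of the 5 had an unadjusted p under 0.05 in edgeR, and DESeq2 called 0 in each. When only the groups compared were fitted, *MT2A*, *MT1X* and *SLC30A1* were called higher in vector cells, at 0.37, 0.22 and 0.19, and *MT1X* in SxxS cells, at 0.32. The share of all tested genes called in those fits was not taken, and the shares above are from the fit of all libraries. Averaged over the lines 1 of 5 was higher and 0 lower, against 6.78% and 5.3% of all tested genes.

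The oxidants were compared directly, averaged over the lines. *MT2A* was higher after arsenite than after hydrogen peroxide by 3.77 on the log2 scale, *MT1X* by 3.03, *SLC30A1* by 1.48 and *MT1F* by 0.64, and *MTF1* was lower, at -0.26. All 5 passed the threshold, 4 higher and 1 lower, against 37.3% and 31.3% of all tested genes. The doses differ between the oxidants, so these are differences between these exposures.

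**Figure D3:**
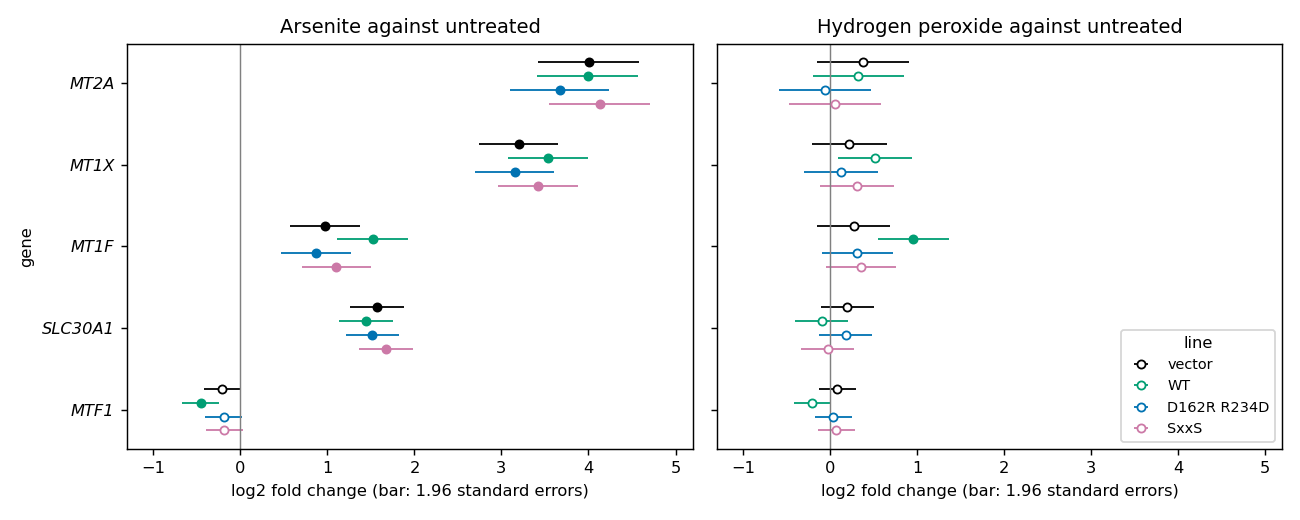
Log2 fold change of the 5 tested genes against untreated cells in each line, after arsenite (left) and hydrogen peroxide (right), with bars for the 95% interval; filled points passed an adjusted p of 0.05. *MT2A* lies between 3.67 and 4.13 with arsenite, and with hydrogen peroxide *MT1F* in WT cells is the 1 filled point.

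With all libraries in the fit, none of these genes was called between a complemented line and vector cells, both untreated. None was called for a difference in response among the lines, and the TXNL1 variants were not compared directly with each other. In untreated cells 0 of 5 differed from vector cells for WT, D162R R234D or SxxS TXNL1, where 0.196%, 0.0267% and 0.0178% of all tested genes were called. In edgeR the lowest unadjusted p of the 15 values was 0.266, and DESeq2 called 0. In an edgeR fit of only the groups compared, *MT2A* was called higher in WT than in vector cells, at 0.28 (adjusted p = 0.0437). The share of all tested genes called in that fit was not taken. The 95% intervals of the log2 difference of *MT2A* were -0.26 to 0.80 for WT, -0.25 to 0.82 for D162R R234D and -0.43 to 0.63 for SxxS. For *SLC30A1* they were -0.37 to 0.24, -0.31 to 0.30 and -0.29 to 0.32. In a test of whether the arsenite response differed among the lines, 0 of 5 were called and 0% of all genes. Their adjusted p-values ran from 0.81 for *MT1F* to 0.939 for *SLC30A1* (edgeR), with unadjusted p-values of 0.146 and above. For hydrogen peroxide 0 of 5 were called, against 0.685% of all genes, with adjusted p-values from 0.663 to 0.87 (edgeR) and unadjusted p-values of 0.0903 and above. DESeq2 called 0 in both tests.

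The make-up of the metallothionein transcripts shifted with arsenite. Per length, *MT2A* gave a median of 61.0% of the summed level of the 7 genes in untreated, 58.3% in hydrogen peroxide and 72.5% in arsenite libraries. *MT1X* gave 34.0%, 36.7% and 26.6%, and *MT1F* 4.43%, 4.98% and 0.715%. The ratio of *MT2A* to *MT1X* per length was 1.54 to 2.22 in untreated, 1.29 to 2.10 in hydrogen peroxide and 2.51 to 3.26 in arsenite libraries. The arsenite libraries did not overlap the others in this ratio. The size of each share and ratio depends on the gene lengths used, which are the same in all treatments.

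Other genes and pseudogenes of the family were scarcely read. Of 14, *MT2P1*, a processed pseudogene on chromosome 4, was the 1 with enough counts to be tested. It is 98.06% identical to *MT2A* over 155 bases, and its counts were 1.10% to 1.60% of those of *MT2A* in arsenite libraries. Its averaged log2 fold change with arsenite was 4.56 (standard error 0.19, adjusted p = 6.01e-19, edgeR). Which of the 2 genes gave these reads cannot be told from the counts. *MT1H* had 0 counts untreated, 1 after hydrogen peroxide and 35 after arsenite, and *MT1CP* had 0, 0 and 28. Family members are alike in sequence, and how the authors counted reads that match several of them is not given in the sources used here.

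**Figure D4:**
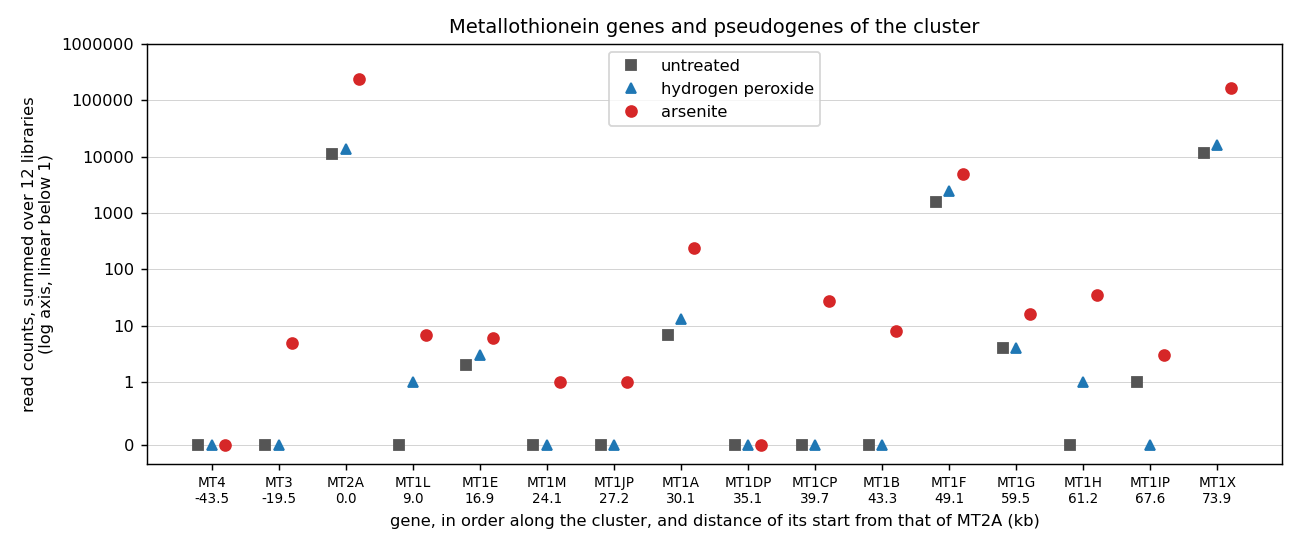
Read counts summed over 12 libraries for the metallothionein genes and pseudogenes of chromosome 16, in order along the cluster with the distance from the start of *MT2A* in kb, on a log axis that is linear below 1. *MT2A*, *MT1X* and *MT1F* hold at least 1597 counts in each treatment, *MT1A* rises from 7 to 236 with arsenite, and *MT4* and *MT1DP* are at 0.

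The other zinc transporters, and the gene lists after them, are read against all tested genes, of which 37.4% were called higher and 31.5% lower with arsenite averaged over the lines, with a median log2 fold change of 0.060. Of 9 other SLC30 exporters, 7 were tested, and with arsenite averaged over the lines 1 was higher, 3 were lower and 3 were not called (median log2 fold change -0.10), and 1 was higher, 4 lower and 2 not called without both outlying WT libraries. *SLC30A4*, *SLC30A6* and *SLC30A5*, which load zinc into vesicles and the secretory pathway, changed by -0.91, -0.67 and -0.64. *SLC30A3*, a vesicular transporter, was higher by 0.46 with arsenite and by 0.48 with hydrogen peroxide. Of 14 SLC39 importers, 12 were tested, and 2 were higher, 7 lower and 3 not called (median -0.19), and 2 were higher, 9 lower and 1 not called without both outlying WT libraries, where 38.4% of all genes were higher and 35.3% lower. *SLC39A3* changed by -0.78, *SLC39A14* by -0.61 and *SLC39A10* by -0.59, and *SLC39A10* was also lower with hydrogen peroxide, at -0.40.

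**Figure D5:**
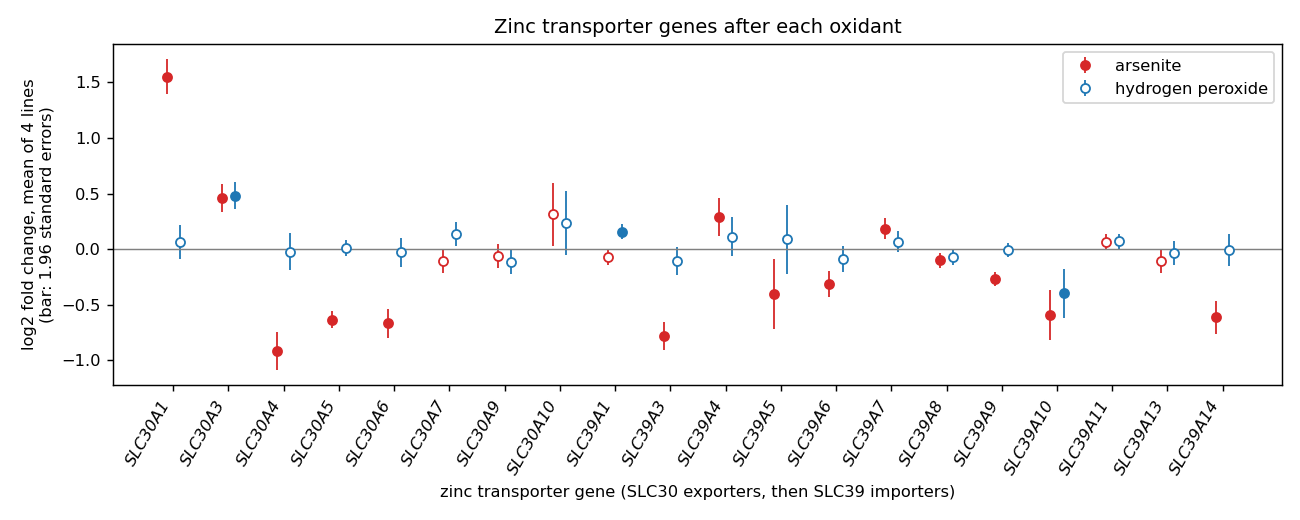
Log2 fold change averaged over the 4 lines after arsenite and hydrogen peroxide for the 20 tested zinc transporter genes, with bars for the 95% interval; filled points passed an adjusted p of 0.05. *SLC30A1* is at 1.55 with arsenite, and the next highest, *SLC30A3*, is at 0.46.

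Of 5 other genes described as MTF1 targets, all were tested, and with arsenite 3 were higher and 2 lower (median 0.26), where 37.4% and 31.5% of all tested genes were called. The 2 lower genes were *GCLC* and *SLC39A10*, and *SLC39A10* is also counted among the zinc importers. This count does not consider in which direction MTF1 is described to act on each gene. The counts for these 5 genes, and for the arsenic and copper genes, did not change without both outlying WT libraries. *PGF*, a growth factor of the VEGF family, rose by 2.20 with arsenite and by 0.27 with hydrogen peroxide on the log2 scale. *SELENOW*, a selenoprotein, rose by 0.65, and *GCLC*, a subunit of the enzyme that starts glutathione synthesis, changed by -0.60. Of 6 genes that handle arsenic, 4 were tested, and 3 were higher and 0 lower (median 0.32), beside the same shares of all genes. *ABCC2*, an exporter of conjugates, rose by 1.86, *ABCC1*, a related exporter, by 0.38 and *AS3MT*, the arsenic methyltransferase, by 0.26. Of 7 copper genes, 1 was higher, 4 were lower and 2 were not called (median -0.26), beside the same shares. *SLC31A2*, a copper transporter, changed by -1.08, *CCS*, the copper chaperone of superoxide dismutase, by 0.51 and the copper pump *ATP7B* by -0.39.

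Levels of these genes were compared with those of 15673 genes by Pearson's r of log2 CPM over the 36 libraries, which share the treatments and 2 outlying libraries. The genes most like *MT2A* were ENSG00000259827 (0.996), *MT1X* (0.995) and *SNHG15* (0.994). ENSG00000259827 overlaps exons of *MT1X* on the same strand, so the matches of both may rest on the same reads. Those most like *SLC30A1* were *AZIN1* (0.989), *CDKAL1* (0.988) and *ZSWIM6* (0.986). Those most like *MTF1* were *ACBD3* (0.940), *BTBD7* (0.917) and *KBTBD8* (0.917). Within the 12 untreated libraries, r between *MT2A* and *MT1X* was 0.52. Within the hydrogen peroxide libraries it was 0.85, and 0.17 without the outlying WT library. Within the arsenite libraries it was 0.95, and 0.89 without the outlying WT library. Between *MT2A* and *SLC30A1*, r was 0.92 over all 36 libraries and 0.98 without both outlying WT libraries. Within untreated libraries it was -0.71. Within hydrogen peroxide libraries it was -0.81 with the outlying library and 0.25 without it, and within arsenite libraries -0.51 and 0.42, so the sign within either oxidant rests on 1 library.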

How the data were processed

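Messenger RNA of 36 libraries (12 groups of 3) was sequenced as paired reads of 100 bases. According to the study's methods, the authors aligned reads to GRCh38 with qAlign of QuasR and deposited raw counts per gene, without normalization. The annotation release, the use of strand, and the treatment of mates and of reads matching several genes are not given in the sources used here. Counts of 2 (68757 times) and 4 (31272 times) were more frequent than 3 (28087 times), so halved counts were an alternative. A count of 1 was more frequent still (72688 times). Groups and replicate numbers came from the sample labels. By the study's methods, cells were treated with the oxidants in triplicate. Neither the labels nor the methods say that replicates were grown as separate cultures before that. The p-values thus measure the spread between these samples.

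Identifiers were matched to GENCODE release 44 (61415 of 61587). Genes with at least 10 counts over the 3 untreated vector libraries, the filter of the study's methods, were tested (22486). Counts were fitted with edgeR 4.0.16 in R 4.3.3, using TMM factors, a mean for each group, all libraries together and robust quasi-likelihood tests, and p-values were adjusted by Benjamini-Hochberg over all tested genes, with a threshold of 0.05. The biological coefficient of variation was 12.4%. CPM used TMM-scaled library sizes, and levels per kb used the length in the count table. DESeq2 1.42.0 was an alternative. The code was tested on simulated counts. The 95% intervals of log2 fold changes came from standard errors of the quasi-likelihood fit, which include the spread between libraries. The Poisson intervals of *MT1A* and the floors (3 counts) cover counting error only.

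The genes and lists were chosen with earlier results of these data known. All 9 genes were named. From each list, genes called in both oxidants or the 3 with the largest arsenite change among those called were named. *MT1H*, *MT1CP* and *ALB* were named after their values were seen. Alternatives were halved counts, total counts or DESeq2's size factors for scaling, edgeR's own filter or none, a fit of only the groups compared, the replicate block, leaving out each library, and leaving out both outlying WT libraries.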

Additional observations from a re-analysis of the deposited data

How the results depend on the processing

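Of 1305 alternative values of 70 fold changes, 1251 kept their direction and their side of the threshold, 2 lost the call, 17 gained one and 35 changed sign. Of 325 alternative counts of called genes, 315 stayed within 1.5 times and 10 moved, and all 320 alternative interaction p-values stayed on their side. All 10 that moved were in hydrogen peroxide or between untreated lines. When only the groups compared were fitted, hydrogen peroxide called 3 genes in vector (0 otherwise), 0 in WT (1 otherwise) and 1 in SxxS cells (0 otherwise), and WT against vector called 1 (*MT2A*, 0.28). Averaged over the lines, hydrogen peroxide called 2 genes in DESeq2 and 2 without both outlying WT libraries, against 1. Leaving out 1 library gave 1 to 2 genes for that average and 0 to 3 for hydrogen peroxide in WT cells, with 0 without WT hydrogen peroxide replicate 2 and 3 without replicate 1. Averaged over the lines, hydrogen peroxide called 14.7% of all tested genes higher and 13.9% lower without both outlying WT libraries. With all libraries these shares were 6.78% and 5.3%. For the other alternatives in which counts moved, the share of all tested genes was not taken. The cause of the moved counts was not tested.

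No fold change that was called changed sign. Without both outlying WT libraries, the hydrogen peroxide values in WT cells were -0.28 for *MT2A* and 0.17 for *SLC30A1*. The averaged value of *MTF1* after hydrogen peroxide was 0.0018 with DESeq2 size factors, 0.0017 in DESeq2, 0.011 without a filter and 0.042 without both outlying WT libraries. *SLC30A1* in D162R R234D against vector was 0.013 without a filter. Leaving out 1 library, hydrogen peroxide values ran from -0.27 to 0.56 for *MT2A* and -0.27 to 0.18 for *SLC30A1* in WT, -0.20 to 0.12 for *MT2A* and -0.016 to 0.11 for *MTF1* in D162R R234D, and -0.0038 to 0.11 for *MT2A* and -0.090 to 0.037 for *SLC30A1* in SxxS cells. The average of *MTF1* ran from -0.031 to 0.047. Against untreated vector cells, *MT1X* in WT ran from -0.11 to 0.054. In D162R R234D, *MT1F* ran from -0.056 to 0.25, *MT1X* from -0.11 to 0.13 and *SLC30A1* from -0.061 to 0.080. In SxxS, *MT1F* ran from -0.066 to 0.24, *MTF1* from -0.085 to 0.015 and *SLC30A1* from -0.047 to 0.055.

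Replicate numbers gave no clear pairing of the samples. Over 198 same-numbered pairs the correlation of deviations had a median of 0.02 and ran from -0.88 to 0.83. Of these, 54 were over 0.1, and 17 of 36 libraries were closest to their own number. The lowest and the highest correlation were both between WT hydrogen peroxide and WT arsenite libraries, the groups that hold the outlying WT libraries. Untreated and hydrogen peroxide libraries of D162R R234D cells were positive at every number (0.39, 0.17 and 0.39). Untreated and arsenite libraries of WT cells were negative at every number (-0.39, -0.037 and -0.27). With the replicate block the averaged arsenite value of *MTF1* was -0.26 (adjusted p = 0.00017, edgeR), and no count of called genes changed. Chosen after seeing the data, correlations, the *MT1A* ratio and list counts were recomputed without both outlying WT libraries, and r of *MT2A* and *SLC30A1* changed sign within hydrogen peroxide (0.25) and arsenite libraries (0.42). Depth limits *MT1A*, *MT1E*, *MT1G* and *MT1M*, whose untreated counts are near 0.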
